A study of Mus musculus with 29 samples.

Results

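Spleens of MLL-ENL-ERtm mice at the progression stage of a myeloproliferative disease were compared with spleens of wild-type mice. The comparison comprised 8 arrays of the 29 in the series, 3 of progression spleen and 5 of wild-type spleen, chosen by tissue, genotype and stage as the labels give them. Most granulocyte genes and some monocyte and progenitor genes rose in the progression spleens, most B cell and T cell genes and some tissue macrophage genes fell, and no erythroid gene passed the test in either direction by its brightest probe set.

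Progression spleens came from mice that carry the MLL-ENL-ERtm oncogene and had received tamoxifen for 10 months (arrays 1 and 2) or 9 months (array 3). The labels describe this stage as partly senescent with the DNA damage response still active. Wild-type spleens came from mice given tamoxifen for 24, 8, 9, 11 and 11 months (arrays 1 to 5), so wild-type 1 had been treated far longer than any progression mouse. Every mouse of both groups received the drug in the chow at 300 mg/kg. Tamoxifen itself is therefore shared, though the time on it is not. The groups differ in the transgene and also in array signals given below, and the part of each was not tested. The other spleen groups were MLL-ENL-ERtm spleens at an early stage (7 months, 3 arrays) and at a terminal stage (19, 21 and 23 months, 3 arrays). They entered the same model and are used only to place progression among the stages. The arrays are called biological replicates, and the promoter of the construct and the number of founder lines are not given in the sources used here. The p-values measure the spread between these arrays.

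MLL-ENL joins the histone methyltransferase MLL (mouse gene Kmt2a) to ENL (mouse gene Mllt1), a reader of chromatin marks, and is found in human acute leukaemia. Such fusions keep Hoxa genes and their partner Meis1 active, genes that normally fall silent as blood progenitors mature. The ERtm part comes from the oestrogen receptor, altered so that its hormone pocket answers to tamoxifen, and the fusion works only while the drug is given. The mouse spleen holds B cell follicles, T cell zones and a red pulp in which macrophages clear old red cells, and it can form blood cells itself. In whole spleen RNA, fewer cells of a type and less RNA per cell cannot be told apart.

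Values are log2 levels as deposited, on a scale where the 14 spleen arrays had medians between 6.73 and 6.90. A log2 difference is progression minus wild type, given ± its standard error (SE). It is also given as a fold only where the lower group's mean lay above 5.812, which is 1 unit over the highest lower quartile of the arrays. A gene is said to have risen or fallen where its limma p, adjusted over all 12394 genes by Benjamini-Hochberg, was under 0.05. Per-array values follow the replicate numbers.

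Progression 1 and 2 stood apart from every other spleen array in the control probe sets for 18S ribosomal RNA. Their levels were 8.85 to 10.1 there, against 13.7 to 14.5 in progression 3 and 12.4 to 14.7 over the other 12 spleen arrays. Both were taken at 10 months, so the low 18S signal and the treatment time cannot be told apart. Their mean correlation with the wild-type arrays was 0.967 and 0.961, against 0.980 for progression 3. In 12 genes both arrays lay at least 1 log2 unit outside all 12 other arrays, 7 below and 5 above. The 3' minus 5' difference of the Gapdh control was 0.06, 0.01 and 0.68 in the progression arrays and 0.14 to 0.61 in the wild-type arrays. The female-specific transcript Xist was low in all 3 progression arrays and high in wild-type 1 and 5. Results are therefore also given for progression 3 alone, a fit in which this array is assumed to vary like the other groups. The part of the low 18S signal in any result was not tested.

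**Figure D1:**
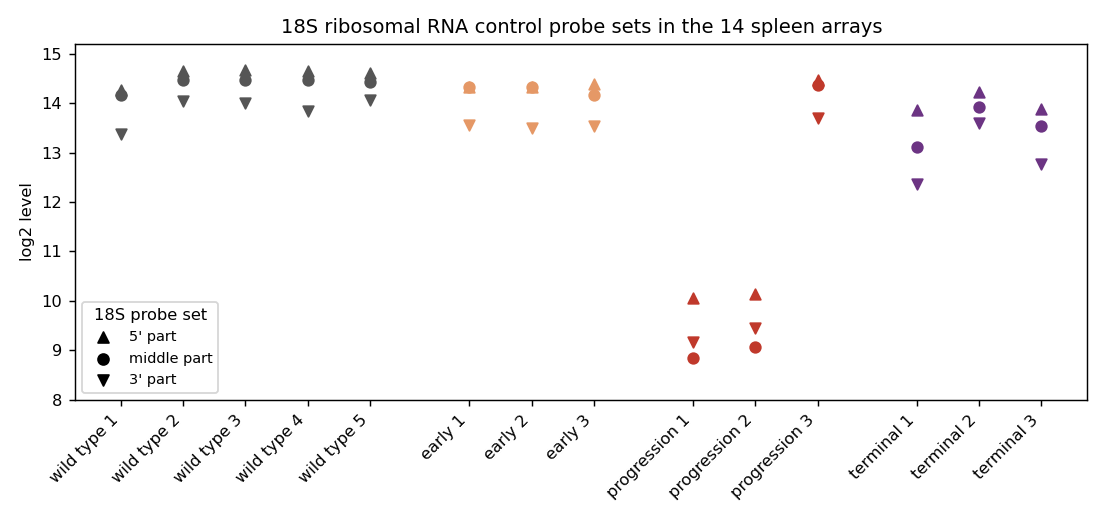
Log2 level (vertical axis) of the 3 control probe sets for 18S ribosomal RNA in each of the 14 spleen arrays, ordered by stage, with a marker shape for each part of the molecule. Progression 1 and 2 lie between 8.85 and 10.1, and the other 12 arrays between 12.4 and 14.7.

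Of 12394 genes, 2386 passed the test in progression against wild type (19.3%), 1152 higher (9.29%) and 1234 lower (9.96%). Among them 361 rose and 443 fell by at least 2-fold on this scale. The 3 progression arrays lay wholly above all 5 wild-type arrays in 12.2% of all genes and wholly below them in 11.7%. The median log2 difference of all genes was 0.037, and the median SE was 0.15. With progression 3 alone 551 genes passed, 404 higher (3.26%) and 147 lower (1.19%). Without progression 3 it was 3712, 1900 higher (15.3%) and 1812 lower (14.6%). With each array centred on the same median, 1472 genes rose and 1028 fell, so that 58.9% of the calls were higher, against 48.3% without centring. Of the 2386 genes, 2362 kept their sign with progression 3 alone and 24 turned. In all 3 fits 484 genes passed in the same direction, 346 higher and 138 lower.

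**Figure D2:**
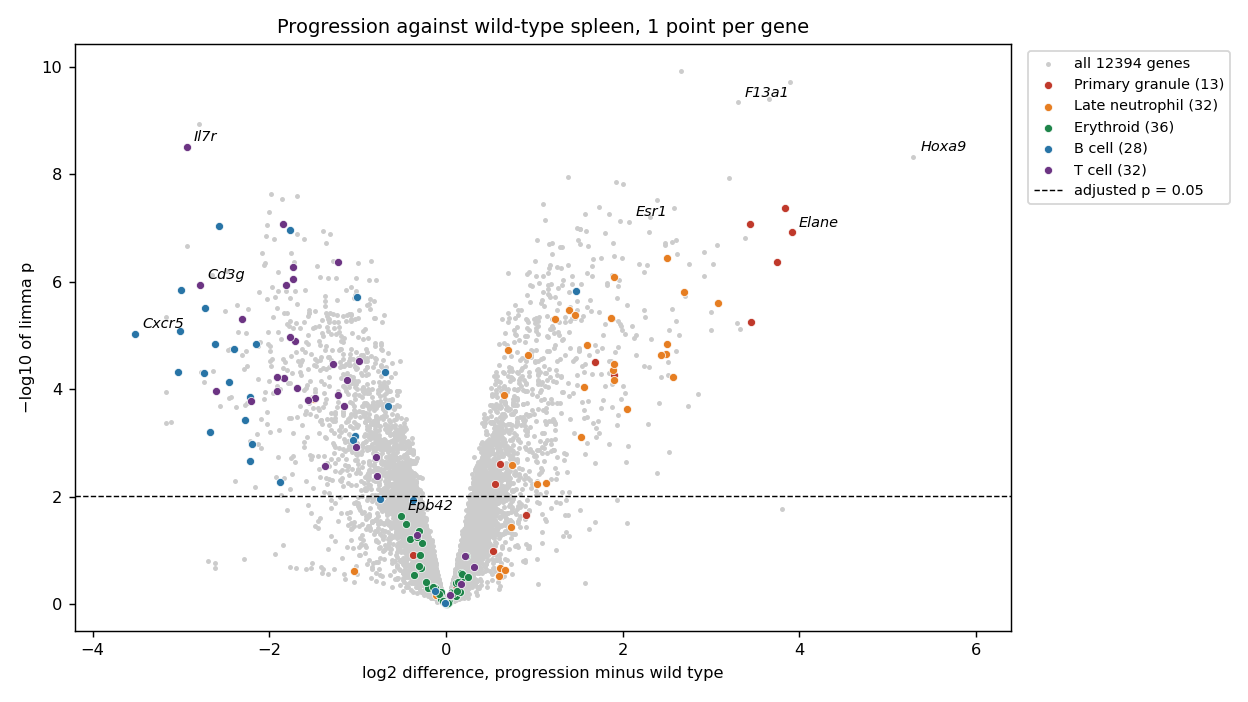
Log2 difference, progression minus wild type (horizontal axis), against -log10 of the limma p (vertical axis), with 1 point for each of 12394 genes and 5 gene lists in colour. Primary granule and late neutrophil genes lie mostly to the right, B cell and T cell genes mostly to the left, and all 36 erythroid genes below the dashed line at an adjusted p of 0.05.

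The parts of the construct were read through the mouse genes that gave rise to them or resemble them. Esr1, the oestrogen receptor from which the ERtm domain derives, had log2 levels of 7.03, 7.04 and 7.64 in progression spleens, against 4.70, 5.14, 5.09, 5.48 and 5.42 in wild-type spleens. The groups did not overlap. The log2 difference was 2.07 ± 0.20 (limma adjusted p = 3.6e-05), and it also passed with progression 3 alone. Kmt2a fell slightly, by 0.64 ± 0.21 on the log2 scale (adjusted p = 0.049), and did not pass with progression 3 alone. Mllt1 was at 0.32 ± 0.13 and did not pass (adjusted p = 0.11). Which part of these transcripts each probe set reads was not examined, so Esr1 is a check of the labels only in so far as its probe set lies within the domain used.

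Genes known to be switched on by MLL fusions were looked at next. Of 21 measured, 10 rose, 2 fell and 9 did not pass, with a median log2 difference of 0.578 beside 0.037 for all genes. In progression 3 taken alone 6 rose and none fell. Hoxa9, the homeobox gene most closely tied to MLL fusions, had the largest log2 rise of the genes named here. Its log2 levels were 10.52, 11.04 and 10.71 in progression spleens and 5.47, 5.77, 5.35, 4.73 and 6.02 in wild-type spleens. The progression arrays lay close together and far above all wild-type arrays, whose mean was near the dim end of the scale. The log2 difference was 5.29 ± 0.41 (adjusted p = 8.4e-06). Of the other Hoxa genes measured, 4 rose, Hoxa10 by 2.51 ± 0.41, Hoxa5 by 2.25 ± 0.30, Hoxa7 by 1.15 ± 0.23 and Hoxa3 by 0.71. Hoxa7 and Hoxa3 did not pass with progression 3 alone. Hoxa4 (0.30 ± 0.12), Hoxa2 (0.21 ± 0.16), Hoxa11 (0.01 ± 0.14) and Hoxa13 (-0.15 ± 0.14) did not pass.

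Partners of Hoxa9 rose as well. Meis1, its cofactor, had log2 levels of 6.61, 6.86 and 6.55 in progression spleens against 5.57, 4.87, 5.23, 5.01 and 5.21 in wild-type spleens, without overlap, a log2 difference of 1.50 ± 0.16 (adjusted p = 4.3e-05). Pbx3, another homeobox cofactor, was 2.18-fold higher (log2 difference 1.12 ± 0.21) and Myb, a transcription factor of progenitors, 2.77-fold higher (1.47 ± 0.18). Cdk6, a cyclin-dependent kinase, rose by 1.24 on the log2 scale, without overlap of the groups, but did not pass with progression 3 alone. The 2 members that fell were Bcl2, a survival gene, by 0.70 ± 0.14, and Mef2c, a transcription factor that B cells also use, by 0.98 on the log2 scale. Neither fall passed with progression 3 alone.

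The serine proteases and the peroxidase of the primary granules, which promyelocytes make, were among the genes with the largest rises. Of 13 measured genes of this list, 9 rose, none fell and 4 did not pass, with a median log2 difference of 1.68. Of the 9, 6 also rose with progression 3 alone. Elane, neutrophil elastase, had log2 levels of 11.74, 13.09 and 12.51 in progression spleens, against 9.33, 9.20, 8.09, 7.94 and 8.10 in wild-type spleens. Progression 1 was the lowest of the 3 and still lay well above the highest wild-type array. This was a 15.1-fold rise (log2 difference 3.92 ± 0.40, adjusted p = 3.8e-05). Prtn3, proteinase 3, had log2 levels of 13.01, 13.54 and 13.27 in progression spleens against 10.54, 9.93, 8.72, 9.06 and 8.94 in wild-type spleens, a 14.3-fold rise. Ctsg, cathepsin G, was 13.4-fold higher. Mpo, myeloperoxidase, was 10.9-fold higher, and so was Ms4a3, a membrane protein of granulocyte-monocyte progenitors. In these genes wild-type 1 and 2 were higher than the other wild-type arrays.

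The 250 bases before the start of the genes for elastase, proteinase 3, myeloperoxidase and cathepsin G are shown because these 4 granule enzymes were among the 5 largest rises of the list, next to that of Cd79a, a B cell receptor component that fell. Sequences are those of RefSeq on mouse build GRCm38.p6, read 5′ to 3′ on the strand of the gene. They span chr10:79886062-79886311 (plus strand) for Elane, chr10:79879417-79879666 (plus) for Prtn3, chr11:87793534-87793783 (plus) for Mpo, chr14:56102575-56102824 (minus) for Ctsg and chr7:24897247-24897496 (plus) for Cd79a. Capitals mark matches to GAGGAA, a core that the myeloid factor PU.1 binds (TTCCTC on the opposite strand), to TGTGGT, the core of RUNX factors (ACCACA on the opposite strand), and to AAGGGAAT, a form of the EBF site.
Elane: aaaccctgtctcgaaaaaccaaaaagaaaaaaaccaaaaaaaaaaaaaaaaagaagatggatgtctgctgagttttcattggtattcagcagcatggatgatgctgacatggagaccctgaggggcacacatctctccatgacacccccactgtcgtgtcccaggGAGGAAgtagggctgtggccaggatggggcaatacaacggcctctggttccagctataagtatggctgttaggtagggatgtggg
Prtn3: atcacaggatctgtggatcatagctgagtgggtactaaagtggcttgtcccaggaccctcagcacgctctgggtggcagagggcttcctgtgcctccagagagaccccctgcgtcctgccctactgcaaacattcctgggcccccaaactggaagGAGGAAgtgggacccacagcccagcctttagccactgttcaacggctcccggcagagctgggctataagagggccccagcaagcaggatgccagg
Mpo: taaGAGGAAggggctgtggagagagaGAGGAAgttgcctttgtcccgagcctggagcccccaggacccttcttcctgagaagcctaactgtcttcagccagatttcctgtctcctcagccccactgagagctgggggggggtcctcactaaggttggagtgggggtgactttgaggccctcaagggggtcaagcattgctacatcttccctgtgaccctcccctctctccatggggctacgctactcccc
Ctsg: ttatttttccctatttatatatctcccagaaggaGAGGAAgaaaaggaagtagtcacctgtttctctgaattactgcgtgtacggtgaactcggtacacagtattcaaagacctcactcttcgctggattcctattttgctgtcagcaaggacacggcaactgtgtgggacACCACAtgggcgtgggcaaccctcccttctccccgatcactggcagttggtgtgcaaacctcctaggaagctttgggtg
Cd79a: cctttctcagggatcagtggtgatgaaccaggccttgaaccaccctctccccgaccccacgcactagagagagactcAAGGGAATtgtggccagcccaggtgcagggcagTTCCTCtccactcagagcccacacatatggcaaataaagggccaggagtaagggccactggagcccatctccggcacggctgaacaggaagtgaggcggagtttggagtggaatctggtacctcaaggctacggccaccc

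GAGGAA, searched on both strands, stood in each of the 4 granule gene windows, at bases 85 to 80 before the start of Elane, 95 to 90 of Prtn3, 247 to 242 and 224 to 219 of Mpo, and 216 to 211 of Ctsg. It stands in 23.3% of the 32851 promoter windows of this length. The RUNX core was found in Ctsg alone of the 4 (bases 79 to 74), and it stands in 14% of all windows. TTNNGNAA, a loose form of the C/EBP site, was in none of the 4 and is in 36.8% of all windows. AAGGGAAT stood in Cd79a at bases 173 to 166 and in 1.1% of all windows. Cd79a also holds GAGGAA on the opposite strand, at bases 140 to 135. These matches describe letters and not bound sites.

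Genes of later neutrophil stages, which encode secondary granule proteins and surface receptors, rose for the most part. Of 32 measured, 25 rose, 1 fell and 6 did not pass, with a median log2 difference of 1.5. Progression 3 alone gave 19 rises and no fall. Hp, haptoglobin, was 5.64-fold higher (log2 difference 2.50 ± 0.28), Padi4, which citrullinates histones in neutrophils, 6.5-fold and Itgb2l, an integrin chain of neutrophils, 8.45-fold. Camp, the cathelicidin, had log2 levels of 14.26, 14.69 and 14.66 in progression spleens against 13.67, 13.53, 12.81, 13.37 and 13.11 in wild-type spleens. These levels lie near the top of the scale, and the rise was 2.36-fold (log2 difference 1.24 ± 0.17, adjusted p = 0.00025). Lcn2, lipocalin 2, was 2.62-fold higher. The gelatinase Mmp9 and the collagenase Mmp8 rose by 1.53 and 2.05 on the log2 scale, and the chemokine receptor Cxcr2 by 1.03. Hcar2, a receptor for hydroxybutyrate, was the member that fell, by 1.50 on the log2 scale.

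Monocyte genes rose in part. Of 26 measured, 10 rose, none fell and 16 did not pass, with a median log2 difference of 0.466. Those that did not pass lay on both sides of 0. Cd14 was at -1.34, Fcgr1 at -0.87 and Csf1r at -0.21 on the log2 scale, and Ms4a6d was at 0.74. Progression 3 alone gave 6 rises. F13a1, the coagulation factor XIII chain made by monocytes, had log2 levels of 12.80, 12.34 and 12.40 in progression spleens, against 9.63, 9.51, 8.88, 9.08 and 8.98 in wild-type spleens. The progression arrays were close to each other and far above all wild-type arrays, a 9.85-fold rise (log2 difference 3.30 ± 0.21, adjusted p = 1.4e-06). Fn1, fibronectin, was 7.6-fold higher (log2 difference 2.93 ± 0.34) and Ccr2, the chemokine receptor that brings monocytes out of the marrow, 3.93-fold higher (1.97 ± 0.28). Cx3cr1, a receptor of patrolling monocytes, had log2 levels of 9.90, 8.45 and 8.44 in progression spleens against 7.12 to 7.33 in wild-type spleens. Progression 1 stood above the other 2, and Cx3cr1 did not pass with progression 3 alone. A second probe set of Cx3cr1 (0.42 ± 0.19) did not pass. The mean log2 level of the monocyte list lay above wild type by 1.18 in progression 1, 0.513 in progression 2 and 0.506 in progression 3.

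Transcription factors of the myeloid lineage rose or did not pass. Of 14 measured, 8 rose, and 5 of them also with progression 3 alone, with a median log2 difference of 0.762. Cebpa, which commits progenitors to granulocytes and monocytes, had log2 levels of 8.80, 8.59 and 8.25 in progression spleens and 7.40, 6.91, 7.14, 7.00 and 6.68 in wild-type spleens. The groups were apart, and the rise was 2.87-fold (log2 difference 1.52 ± 0.16, adjusted p = 4.4e-05). Spi1, which encodes PU.1, was 1.96-fold higher (0.97 ± 0.18). Klf4, a factor of monocytes, was 3.84-fold higher and Cebpd 3.72-fold higher. Gfi1, a repressor needed for neutrophils, had log2 levels of 7.27, 9.47 and 8.98 in progression spleens, against 6.28 to 6.89 in wild-type spleens, so progression 1 was near the wild-type arrays while the other 2 were well above them. Its log2 difference was 2.06 ± 0.50 (adjusted p = 0.011).

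A minority of the genes of stem and progenitor cells rose. Of 22 measured, 5 rose, none fell and 17 did not pass, beside 9.29% of all genes higher, with a median log2 difference of 0.566, and 4 rose with progression 3 alone. Cd34, the sialomucin that marks progenitors and also endothelium, had log2 levels of 8.66, 8.07 and 8.48 in progression spleens, against 6.37, 5.87, 5.03, 5.85 and 5.89 in wild-type spleens, without overlap. The log2 difference was 2.60 ± 0.27 (adjusted p = 4.3e-05). Prom1, prominin 1, was 4.06-fold higher, with progression 1 at a log2 level of 7.86 and progression 2 and 3 at 9.62 and 9.61, against 6.66 to 7.61 in wild-type spleens. Plac8, a small protein of myeloid progenitors, was 2.07-fold higher (log2 difference 1.05 ± 0.14), Sox4, a transcription factor, 2.28-fold, and Erg, an ETS factor of stem cells, rose by 0.73 ± 0.22 on the log2 scale.

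**Figure D3:**
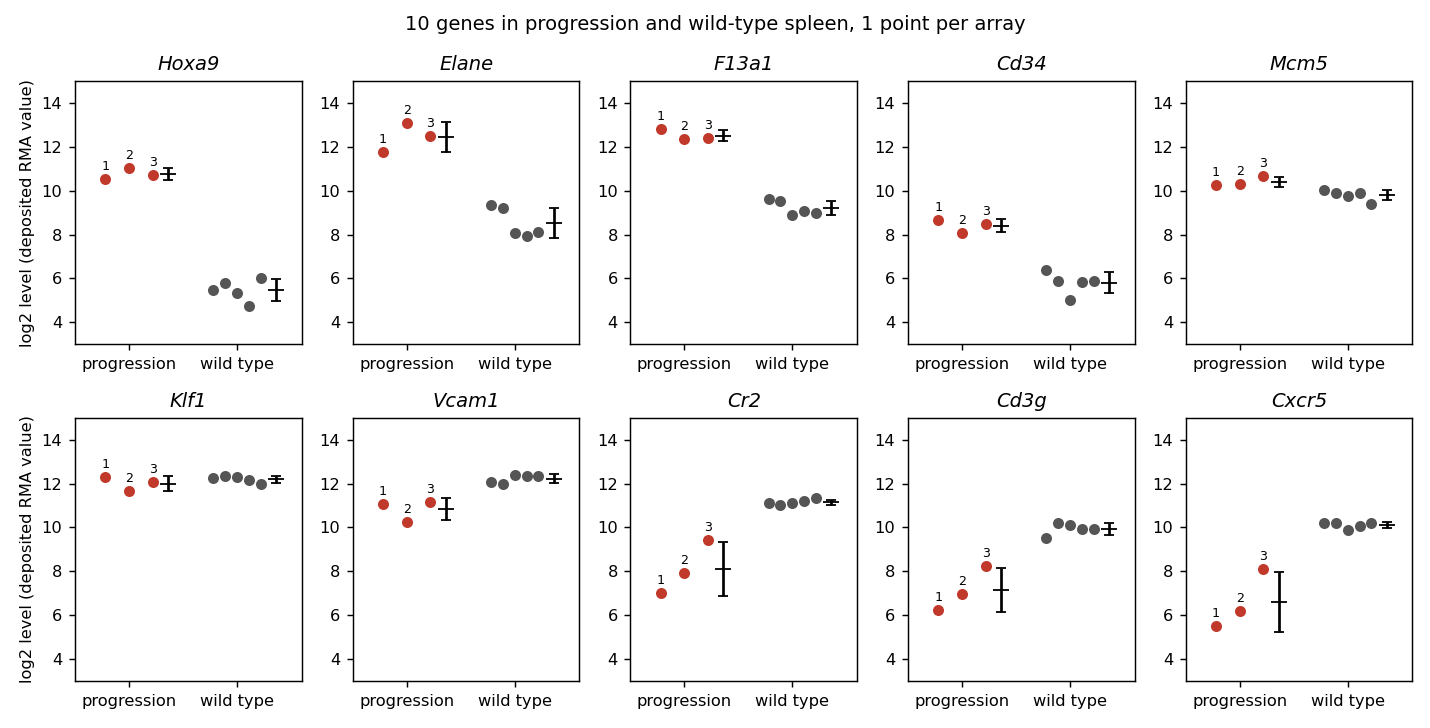
Log2 level of 10 genes in the 3 progression arrays (left, numbered) and the 5 wild-type arrays (right), 1 point per array, with the mean and SD as a bar. Hoxa9, Elane, F13a1, Cd34 and Mcm5 lie higher in progression spleens and Klf1 overlaps. Vcam1, Cr2, Cd3g and Cxcr5 lie lower, with progression 3 nearest to wild type in Cr2, Cd3g and Cxcr5. Mcm5, a replication gene chosen after its values were seen, rose by 0.59 ± 0.18 (limma adjusted p = 0.032). It did not pass without progression 3.

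Genes of resident spleen macrophages fell or did not pass. Of 28 measured, none rose, 13 fell and 15 did not pass, with a median log2 difference of -0.931. For progression 3 alone 3 fell, and the median was -0.931 as well. Vcam1, an adhesion molecule that red pulp macrophages display, had log2 levels of 11.08, 10.25 and 11.18 in progression spleens, against 12.05, 12.00, 12.40, 12.36 and 12.32 in wild-type spleens. Every progression array was below every wild-type array, and the level was 2.62-fold lower (log2 difference -1.39 ± 0.24, adjusted p = 0.00097). Spic, the transcription factor that red pulp macrophages require, fell by 1.71 on the log2 scale, with levels of 8.84, 8.30 and 8.12 in progression spleens and 10.83, 9.31, 10.60, 9.77 and 10.16 in wild-type spleens. The iron exporter Slc40a1 and the haem oxygenase Hmox1, which recycle iron from red cells, fell by 1.29 and 1.16 on the log2 scale. The complement genes C1qb and C1qc were 3.04-fold and 2.78-fold lower. The receptors Axl and Mrc1 were 3.47-fold and 3.33-fold lower. A second probe set of Axl was at -0.05 ± 0.10 and did not pass. Slc11a1, an ion transporter of the phagosome, fell by 0.93 ± 0.15 on the log2 scale and also with progression 3 alone.

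Of 20 dendritic cell genes measured, 2 rose, 4 fell and 14 did not pass, beside 9.29% of all genes higher and 9.96% lower. The median log2 difference was -0.415, and -0.591 with progression 3 alone. Cd83, a surface protein of mature dendritic cells and of activated B cells, was 4.9-fold lower. Ly6d, a marker of plasmacytoid cells that B cells share, was 4.79-fold lower (log2 difference -2.26 ± 0.33), also with progression 3 alone. Clec10a, a lectin, was 2.24-fold higher in contrast, at log2 levels of 8.55, 7.79 and 7.78 in progression spleens against 6.69 to 7.12 in wild-type spleens. All 8 measured genes of antigen presentation by MHC class II lay lower in every progression array than in every wild-type array. Of all genes 11.7% did so. Of the 8, 4 passed the test as lower, beside 9.96% of all genes, and the median log2 difference was -1.15. H2-DMb2, which loads peptides onto class II molecules, had log2 levels of 8.87, 9.81 and 9.73 in progression spleens and 11.28, 11.65, 11.41, 11.37 and 11.60 in wild-type spleens. It was 3.97-fold lower (log2 difference -1.99 ± 0.31, adjusted p = 0.00053) and the only one of the 4 to pass with progression 3 alone. Ciita, the transactivator of class II genes, was 2.84-fold lower (adjusted p = 0.039).

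Among 19 genes of mast cells, basophils and eosinophils, 1 rose and 4 fell, beside 9.29% of all genes higher and 9.96% lower. The median log2 difference was -0.125. The member that rose was the eosinophil receptor Siglecf, by 1.26 ± 0.36 (adjusted p = 0.026). Its groups overlapped, and it did not pass without progression 3. The eosinophil genes Epx (2.05), Prg2 (1.36), Prg3 (1.25) and Il5ra (-0.21) did not pass. Fcer1a, the receptor chain that binds IgE, had log2 levels of 4.26, 4.76 and 3.96 in progression spleens, against 7.35, 7.17, 5.92, 7.51 and 9.22 in wild-type spleens. The progression arrays were at the dim end of the scale, while the wild-type arrays were widely spread, with wild-type 5 the highest. The log2 difference was -3.11 ± 0.67 (adjusted p = 0.0052). The mast cell proteases Cma1 and Mcpt4 fell by 2.46 ± 0.47 and 3.17 ± 0.69 on the log2 scale, and the eosinophil receptor Ccr3 by 1.42 ± 0.23. Of these, Ccr3 passed with progression 3 alone.

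Erythroid genes did not pass the test. None of the 36 measured genes rose or fell, the median log2 difference was -0.0449, and the means of the 3 progression arrays were 0.0675, -0.292 and -0.00466 from the wild-type mean. Klf1, a master transcription factor of red cell formation, had log2 levels of 12.29, 11.64 and 12.05 in progression spleens and 12.24, 12.36, 12.30, 12.14 and 11.96 in wild-type spleens. The groups overlapped, and the log2 difference was -0.21 ± 0.31 (adjusted p = 0.67). Alas2, the first enzyme of haem synthesis in red cells, was at -0.14 ± 0.19. The lowest p belonged to Epb42, a protein of the red cell membrane, at -0.51 ± 0.20 (adjusted p = 0.089). Each gene was read here by its brightest probe set. Of all 61 probe sets of these genes, tested together with those of all genes, 1 was higher and 2 lower. They were other probe sets of the embryonic globin gene Hbb-bh1 (0.77 ± 0.21, adjusted p = 0.021), of Fech (-0.61 ± 0.17, adjusted p = 0.026) and of Slc4a1 (-1.87 ± 0.51, adjusted p = 0.023). Without progression 3, Epb42, the haem enzyme Fech and the mitochondrial iron importer Slc25a37 passed as lower. The embryonic globin gene Hbb-y, which is not on the list, is 1 of the 12 genes in which progression 1 and 2 stood apart. Its log2 levels were 13.44, 10.39 and 5.03 in progression spleens and 4.37 to 6.87 in wild-type spleens, and it did not pass (adjusted p = 0.072).

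No megakaryocyte or platelet gene passed among 20 measured, but 1 array stood out. In progression 1 the list averaged 1.25 more than wild type, while progression 2 and 3 were at -0.156 and -0.131. Ppbp, the platelet chemokine, had log2 levels of 13.22, 11.70 and 11.21 in progression spleens and 11.92, 11.65, 10.87, 10.85 and 11.21 in wild-type spleens. Progression 1 alone exceeded all wild-type arrays, and the log2 difference was 0.75 ± 0.66 (adjusted p = 0.45). The median of the list was 0.369 with all 3 arrays and -0.15 with progression 3 alone. Progression 1 was the only 1 of the 3 arrays with a mean above wild type.

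B cell genes had the lowest median of the 32 lists with all 3 progression arrays. Of 28 measured, 23 fell, 1 rose and 4 did not pass, with a median log2 difference of -2.21. The mean of the list lay -2.37, -1.89 and -1.07 from wild type in progression 1, 2 and 3, so progression 3 kept the highest level. There were 5 falls and 1 rise with progression 3 alone, where the median was -1.16 and that of the pancreas list (-1.64) was lower. Cr2, complement receptor 2 of B cells and follicular dendritic cells, had log2 levels of 6.99, 7.91 and 9.42 in progression spleens against 11.09, 11.02, 11.09, 11.19 and 11.33 in wild-type spleens. The wild-type arrays lay close together, and the progression arrays were spread widely below them. The level was 8.21-fold lower (log2 difference -3.04 ± 0.52, adjusted p = 0.0011). Cxcr5, the receptor that leads B cells into follicles, had the largest fall of the genes named, at log2 levels of 5.48, 6.17 and 8.11 in progression spleens and 9.87 to 10.21 in wild-type spleens, an 11.5-fold fall (-3.52 ± 0.52). Neither Cr2 nor Cxcr5 passed with progression 3 alone.

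Regulators and receptors of B cells followed the same order of arrays. Ebf1, a transcription factor that defines the lineage, was 8.04-fold lower, Bach2 6.69-fold and Spib 6.38-fold, and none of these passed with progression 3 alone. Genes that did so were Fcrl1, an Fc receptor-like protein (5.96-fold lower, log2 difference -2.58 ± 0.25), Vpreb3, a chaperone of B cell receptor assembly (3.41-fold lower), Fcer2a, the low-affinity IgE receptor CD23 (8.01-fold lower), Fcrla (6.64-fold lower) and Cd1d1 (2.01-fold lower). Cd79a, whose upstream sequence is given above, had log2 levels of 6.36, 7.31 and 8.77 in progression spleens and 9.98, 9.99, 9.65, 9.94 and 10.14 in wild-type spleens, a log2 difference of -2.46. The member that rose was Myb, which is shared with the fusion target list and is used by progenitors of several lineages.

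Genes of B cell precursors moved in both directions. Of 10 measured, 6 rose, 2 fell and 2 did not pass, with a median log2 difference of 0.884, and 2 rose and 1 fell with progression 3 alone. The members that rose were Cd93, Sox4, Rag1, Rag2, Vpreb1 and Igll1. Second probe sets of Igll1 (-0.27 ± 0.18) and Cd93 (0.51 ± 0.17) did not pass. Cd93, which early progenitors and monocytes also carry, was 4.94-fold higher, with log2 levels of 9.99, 9.87 and 9.85 in progression spleens against 7.79, 7.56, 6.82, 7.89 and 7.92 in wild-type spleens. The surrogate light chain gene Vpreb1 had log2 levels of 6.86, 4.67 and 6.83 in progression spleens and 4.08 to 4.84 in wild-type spleens, so progression 2 lay among the wild-type arrays. The recombinase gene Rag1, at 5.58, 4.77 and 6.15 in progression spleens against 3.55 to 4.48 in wild-type spleens, was higher by 1.69 ± 0.45 (adjusted p = 0.019) but passed in neither reduced fit. Il7r, the interleukin 7 receptor chain of precursors and mature T cells, was 7.66-fold lower (log2 difference -2.94 ± 0.22, adjusted p = 6.4e-06). Of 15 plasma cell genes, 6 fell and none rose, with a median of -0.704, and none passed with progression 3 alone. Jchain, which links IgA and IgM, was 2.69-fold lower, and Irf4, a factor of plasma cells and activated lymphocytes, 4.17-fold lower. A second probe set of Irf4 (-0.36 ± 0.24) did not pass.

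T cell genes fell for the most part. Of 32 measured, 27 fell, none rose and 5 did not pass, with a median log2 difference of -1.53, and 8 fell with progression 3 alone (median -0.973). The mean of the list lay -1.75, -1.47 and -0.937 from wild type in progression 1, 2 and 3. Cd3g, a chain of the T cell receptor complex, had log2 levels of 6.24, 6.97 and 8.24 in progression spleens against 9.50, 10.19, 10.11, 9.92 and 9.94 in wild-type spleens. The groups did not overlap, and the level was 6.88-fold lower (log2 difference -2.78 ± 0.34, adjusted p = 0.00011). Cd3d was 3.52-fold lower and Cd3e 1.98-fold lower. Cd8b1, the CD8 coreceptor chain, was 3.59-fold lower, at log2 levels of 7.19, 7.68 and 7.63 in progression spleens and 8.89 to 9.66 in wild-type spleens. The costimulatory receptor Cd28 was 4.95-fold lower.

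Of 26 genes of NK cells and cytotoxic granules, 12 fell and 2 rose, with a median log2 difference of -0.822. Of all genes 9.96% were lower and 9.29% higher. The 2 that rose were Cd244a (1.11) and Il18rap (1.06). A second probe set of Cd244a was at -0.06 ± 0.34 and did not pass. The NK receptor gene Ncr1 (-0.02) and the granule genes Gzma (-0.09), Gzmb (-0.55) and Nkg7 (0.53) did not pass. The member that fell with progression 3 alone was Klrd1, a chain of an NK receptor, which was 2.98-fold lower over the 3 arrays. Gzmk, a granzyme, was 4.14-fold lower, and Ccl5, a chemokine of memory and cytotoxic lymphocytes, had log2 levels of 9.74, 10.51 and 11.12 in progression spleens against 12.34 to 12.60 in wild-type spleens. Genes that guide lymphocytes into the white pulp fell as well, 7 of 14 measured, while 1 rose (median -1.24). For progression 3 alone 2 fell and 1 rose. Ccr7, which leads T cells and dendritic cells to the T zone, was 6.26-fold lower (log2 difference -2.65 ± 0.31), and Ltb, lymphotoxin beta, 5.11-fold lower. Cxcl13, the ligand of Cxcr5, was 2.55-fold lower (adjusted p = 0.035), but it passed neither with progression 3 alone nor without it. The member that rose was Ltbr, the receptor of lymphotoxin, 2.05-fold (log2 difference 1.04 ± 0.18), also with progression 3 alone.

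Some genes of cell division rose, by small amounts. Of all genes 9.29% were higher and 9.96% lower. Of 42 DNA replication genes 14 rose and none fell, with a median log2 difference of 0.293. Of 45 mitosis genes 19 rose and none fell, with a median of 0.416. Only 2 and 3 of them rose with progression 3 alone, although the medians were 0.399 and 0.519. Cdc45, a part of the replicative helicase, had log2 levels of 8.80, 8.89 and 8.53 in progression spleens against 7.63, 7.64, 7.53, 7.61 and 7.05 in wild-type spleens. It rose 2.37-fold (log2 difference 1.25 ± 0.17, adjusted p = 0.00025). Stmn1, which destabilises microtubules, was 1.66-fold higher, Bub1b, a spindle checkpoint kinase, 1.92-fold, Cenpe, a kinetochore motor, 2.09-fold, and Cdk1 1.54-fold. In Cdc45, Bub1b, Aurka and Cdk1, wild-type 5 was the lowest of the 5 wild-type arrays. Mki67, the proliferation marker Ki-67, had log2 levels of 13.16, 13.18 and 13.30 in progression spleens and 12.91, 13.02, 12.98, 13.05 and 12.78 in wild-type spleens. These did not overlap, but the log2 difference of 0.27 ± 0.14 did not pass (adjusted p = 0.19).

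The labels describe the stage by an active DNA damage response and partial senescence, and genes of both were looked at by name. Of 40 DNA damage response genes, 8 rose, 3 fell and 29 did not pass, beside 9.29% of all genes higher and 9.96% lower. The median log2 difference was 0.184. Taken alone, progression 3 gave 4 rises and 1 fall. Among those that rose were Cdc25a, the phosphatase that checkpoints destroy (2.22-fold, log2 difference 1.15 ± 0.13), and the recombination gene Rad54l (1.74-fold). The Fanconi genes Fanci, Fancg and Fanca rose by 0.64, 0.52 and 0.39 on the log2 scale. Second probe sets of these genes were at -0.08, 0.23 and 0.34 and did not pass. Atm, the kinase that responds to double-strand breaks, had log2 levels of 7.30, 7.02 and 7.58 in progression spleens against 8.58, 8.64, 8.64, 8.95 and 8.80 in wild-type spleens. The groups were wide apart, and it was 2.68-fold lower (log2 difference -1.42 ± 0.17, adjusted p = 9.4e-05), also with progression 3 alone. Chek1, the kinase of the replication checkpoint, was at 0.36 ± 0.13 and did not pass (adjusted p = 0.076). These are transcript levels, and phosphorylation of the kinases was not measured.

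Of 30 target genes of p53, 3 rose and 9 fell, beside 9.29% of all genes higher and 9.96% lower. The median was -0.21, and -0.194 with progression 3 alone. Cdkn1a, the p21 inhibitor of cyclin-dependent kinases, had log2 levels of 9.26, 7.96 and 7.78 in progression spleens and 7.88, 7.15, 7.05, 7.18 and 7.23 in wild-type spleens. It rose 2.05-fold (log2 difference 1.03 ± 0.28, adjusted p = 0.018), but progression 3 lay below wild-type 1, and it did not pass with progression 3 alone. Apaf1, the scaffold of the apoptosome, was 1.87-fold higher and Ddit4, an inhibitor of mTOR, 4.06-fold lower, both also with progression 3 alone. Ephx1, an epoxide hydrolase, was 4.77-fold lower, Sesn1 1.83-fold and Trp53inp1 1.92-fold.

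Of 25 genes of cell cycle inhibition and senescence, 3 rose and 7 fell, with a median of -0.043, beside 9.29% of all genes higher and 9.96% lower. Taken alone, progression 3 gave 2 rises and no fall, and the median was 0.0746. Cdkn2a, the locus of p16 and p19Arf, was at log2 levels of 4.00, 3.90 and 4.87 in progression spleens and 5.77, 5.35, 6.10, 5.64 and 5.32 in wild-type spleens, all near the dim end of the scale. The log2 difference was -1.38 ± 0.45 (adjusted p = 0.045), and it did not pass with progression 3 alone. Cdkn2b was at -0.28 ± 0.26 (adjusted p = 0.47) and Cdkn2c at 0.39 ± 0.14 (adjusted p = 0.067). Igfbp4, a binding protein of insulin-like growth factors, had log2 levels of 10.76, 11.24 and 11.32 in progression spleens against 9.89, 9.83, 9.94, 9.94 and 9.58 in wild-type spleens, a 2.41-fold rise (adjusted p = 0.00012). Bmi1, a Polycomb repressor of the Cdkn2a locus, was 1.74-fold lower (log2 difference -0.80 ± 0.12). Levels of Hmga2, a chromatin protein, were 5.81, 5.76 and 4.44 in progression spleens and 4.18 to 4.49 in wild-type spleens, so its rise of 0.93 ± 0.28 rests on progression 1 and 2.

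The inflammatory genes that passed were mostly lower. Of 43 cytokine and chemokine genes, 1 rose, 7 fell and 35 did not pass, beside 9.29% of all genes higher and 9.96% lower, with a median log2 difference of -0.303. Progression 3 alone gave 1 rise and no fall. The member that rose was Tnfsf13b, the B cell survival factor BAFF, 3.81-fold, with log2 levels of 6.85, 8.90 and 8.54 in progression spleens against 6.20, 6.59, 6.36, 6.15 and 5.54 in wild-type spleens. Progression 1 was close to the wild-type arrays. Il18 was 2.94-fold lower, Relb, a subunit of NF-kB, 3.12-fold, and the interferon-gamma induced chemokines Cxcl9 and Cxcl10 2.61-fold and 1.92-fold. Il6 had log2 levels of 4.47, 5.15 and 3.56 in progression spleens and 6.13, 3.77, 4.47, 4.05 and 5.98 in wild-type spleens. The higher wild-type values were those of arrays 1 and 5, and the difference did not pass (-0.48 ± 0.50, adjusted p = 0.53). The neutrophil chemokine Cxcl2 had the same wild-type arrays on top, at 8.72 and 7.76, against 3.76 to 4.92 in progression spleens, and did not pass either (adjusted p = 0.25).

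Of 35 interferon-induced genes, 1 rose, 8 fell and 26 did not pass, beside 9.29% of all genes higher and 9.96% lower. The median was -0.413, and -0.532 with progression 3 alone. The mean of the list lay 0.145, -0.693 and -0.666 from wild type in progression 1, 2 and 3. Gbp2, a guanylate-binding protein, was 3.6-fold lower (log2 difference -1.85 ± 0.30), and Irf1 1.65-fold lower. Of 30 immediate early and stress genes 7 fell, 1 rose and 22 did not pass, beside the same shares of all genes. Their median was -0.525, and -0.292 with progression 3 alone. Rgs1, a regulator of G protein signalling in lymphocytes, was at log2 levels of 6.47, 6.09 and 6.66 in progression spleens and 9.13, 9.04, 9.02, 8.23 and 9.01 in wild-type spleens, 5.59-fold lower (adjusted p = 8.4e-05). Ier5 and Dusp2 were 3.02-fold and 3.42-fold lower, and all 3 passed with progression 3 alone. The member that rose was Klf4, named above among the myeloid factors.

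Among genes of lipid mediators, 3 of leukotriene synthesis and sensing rose, and the gene of prostacyclin synthase fell. Of 22 measured genes of both pathways 4 rose, 1 fell and 17 did not pass, beside 9.29% of all genes higher and 9.96% lower. The median was 0.25, and 0.073 with progression 3 alone. Alox5ap, which hands arachidonic acid to lipoxygenase, was 3.65-fold higher, Lta4h, the hydrolase that makes leukotriene B4, 3.97-fold and Ltb4r1, its receptor, 5.78-fold. Lta4h had log2 levels of 11.62, 12.99 and 12.32 in progression spleens against 10.01, 10.56, 10.32, 10.40 and 10.33 in wild-type spleens. Ptgis, which makes prostacyclin, was 9.03-fold lower, at log2 levels of 5.97, 6.45 and 6.90 in progression spleens and 9.43, 9.02, 10.07, 9.61 and 9.94 in wild-type spleens (log2 difference -3.17 ± 0.44, adjusted p = 0.00025). Ptgir, the prostacyclin receptor, rose by 1.49 ± 0.15 on the log2 scale. Ptgs2, the inducible cyclooxygenase, was dim in 6 of the 8 arrays and high in wild-type 1 and 5, at 7.72 and 6.47, and did not pass (adjusted p = 0.42).

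Few structural genes passed, and the shares over all genes were 9.29% higher and 9.96% lower. Of 43 stromal genes, 1 rose and 4 fell (median -0.0342), with 1 rise and no fall for progression 3 alone, and of 26 endothelial genes 1 fell, Pecam1, 2.01-fold. The stromal member with the lowest p, Thy1, is also a T cell gene. Of 22 pancreas genes 1 fell, Gp2, but the mean of that list varied between wild-type arrays. From the mean of the 5 wild-type arrays it lay -1.18, -1.05 and -1.56 in progression 1, 2 and 3, against 3.96 in wild-type 3, 0.0871 in wild-type 5 and -1.5 to -1.23 in the other wild-type arrays. The pancreas transcripts of wild-type 3 and, to a lesser degree, wild-type 5 move with that result, and their part in it was not tested. Of 21 genes of fat and muscle 2 rose, a share near the 9.29% of all genes. The median of this list was 0.0616, and -0.0931 with progression 3 alone. The 2 were Ckm and Pygm (0.45 ± 0.14), while the muscle genes Acta1 (-0.05), Atp2a1 (-0.05) and Mylpf (-0.19) did not pass. Ckm, muscle creatine kinase, had log2 levels of 8.33, 8.24 and 7.49 in progression spleens against 5.99, 5.57, 5.87, 5.53 and 5.68 in wild-type spleens, a log2 difference of 2.29 ± 0.39 (adjusted p = 0.00095).

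**Figure D4:**
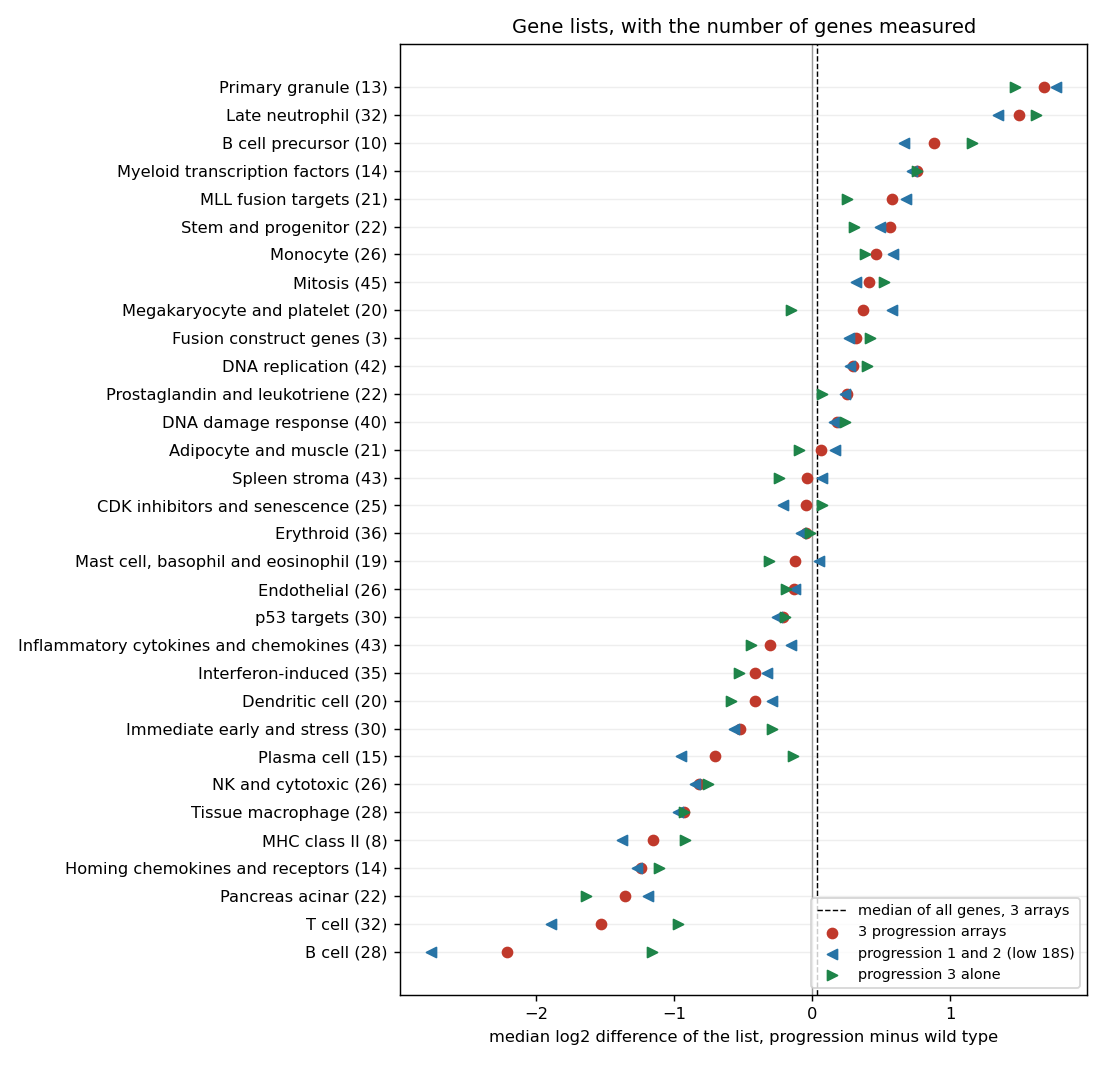
Median log2 difference, progression minus wild type, of each of 32 gene lists, for all 3 progression arrays (circles), progression 1 and 2 (left triangles) and progression 3 alone (right triangles), with the number of genes measured in brackets. The dashed line is the median of all genes, 0.037. B cell, T cell and plasma cell lists lie nearer to 0 with progression 3 alone, and primary granule and late neutrophil lists stay above 1 in each.

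Several of the largest changes lay outside these groups. Gria3, a glutamate receptor subunit, had log2 levels of 9.26, 9.36 and 8.86 in progression spleens, against 5.82, 5.14, 5.09, 5.52 and 4.72 in wild-type spleens, a log2 difference of 3.90 ± 0.24 (adjusted p = 1.2e-06). Chdh, choline dehydrogenase, had 9.37, 9.14 and 9.14 in progression spleens against 5.75, 5.75, 5.09, 5.34 and 5.87 in wild-type spleens, a difference of 3.66 ± 0.23. In both genes the 3 progression arrays lay close together, and the wild-type arrays were near the dim end of the scale. Adgrg3, an adhesion receptor of neutrophils, was 10.4-fold higher and Lbp, the lipopolysaccharide-binding protein, 8.39-fold higher. The growth factor Nrg4, the gluconeogenic enzyme Fbp1 and the lectin Mgl2 rose by 3.33 ± 0.48, 3.30 ± 0.47 and 3.20 ± 0.27 on the log2 scale. All 7 also passed with progression 3 alone. Among the falls, the chemokine receptor Cxcr6 was at log2 levels of 5.31, 5.46 and 5.98 in progression spleens and 8.22, 8.24, 8.32, 8.31 and 8.84 in wild-type spleens (-2.80 ± 0.20, adjusted p = 2.8e-06). Zcchc18, a zinc finger gene, fell by 2.93 ± 0.31. Scd1, a fatty acid desaturase, was 6.84-fold lower and Dtx1, a Notch pathway gene of marginal zone B cells, 6.71-fold lower. Scd1 and Dtx1 followed the order of the B cell list, with progression 3 nearest to wild type, and did not pass with progression 3 alone.

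Against the early stage no gene passed in progression spleens (limma, 0 of 12394, 0%), while 910 had an unadjusted p under 0.05. With array weights, an alternative added after the data were seen, 328 passed, and without progression 3 382 did. Against the terminal stage 726 genes passed (5.86%), 409 higher in progression (3.3%) and 317 lower (2.56%). It was 225 with progression 3 alone. All 3 terminal mice were Xist-high and all 3 progression mice Xist-low, and with the Xist level in the model 200 passed, of which 12 were lower.

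The stages share the wild-type arrays, so their values are given side by side. In early, progression and terminal spleens, 15.9%, 19.3% and 34.5% of all genes passed against wild type. The median log2 difference of the primary granule list from wild type was 1.36, 1.68 and 2.24, that of the late neutrophil list 1.57, 1.5 and 2.27, and that of the fusion targets 0.446, 0.578 and 0.567. The B cell list stood at -1.6, -2.21 and -3 and the T cell list at -1.38, -1.53 and -1.83. Hoxa9 was already 4.81 above wild type on the log2 scale in early spleens and 4.48 above it in terminal spleens.

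The erythroid list set the terminal stage apart from the others. Its median log2 difference from wild type was 0.158 in early, -0.0449 in progression and -1.66 in terminal spleens. Of its 36 genes 28 were higher in progression than in terminal spleens and none lower, and the median log2 difference was 1.6, against -0.012 for all genes. Alas2 had log2 levels of 13.04, 12.55 and 12.85 in progression spleens against 9.61, 10.49 and 9.56 in terminal spleens, a difference of 2.93 ± 0.21 (adjusted p = 1.9e-06). The anion exchanger Slc4a1 of the red cell membrane was higher by 1.31 ± 0.12. Of 20 megakaryocyte genes 4 were higher in progression, among them Ppbp by 3.35 ± 0.74, and 6 of 43 stromal genes were. Among the genes that passed, the largest differences were those of Igfbp7, a secreted protein of vessels (4.23 ± 0.70), Ackr3, a scavenging chemokine receptor (3.57 ± 0.73), Cavin2, a caveolar coat protein (3.40 ± 0.87) and Fn3k, a kinase that repairs glycated proteins (3.24 ± 0.25). Lower in progression than in terminal spleens were the eosinophil-type ribonuclease gene Rnase2a (-2.84 ± 0.73), the adaptor gene Grb14 (-2.29 ± 0.23), the protease gene Asprv1 (-2.26 ± 0.60) and Junb, an AP-1 gene (-2.20 ± 0.54). Max, the partner of Myc, was also lower (-2.56 ± 0.63), but it is 1 of the 12 genes in which progression 1 and 2 stood apart, with log2 levels of 6.03, 6.56 and 9.66 in progression spleens against 9.18 to 9.51 in wild-type spleens.

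**Figure D5:**
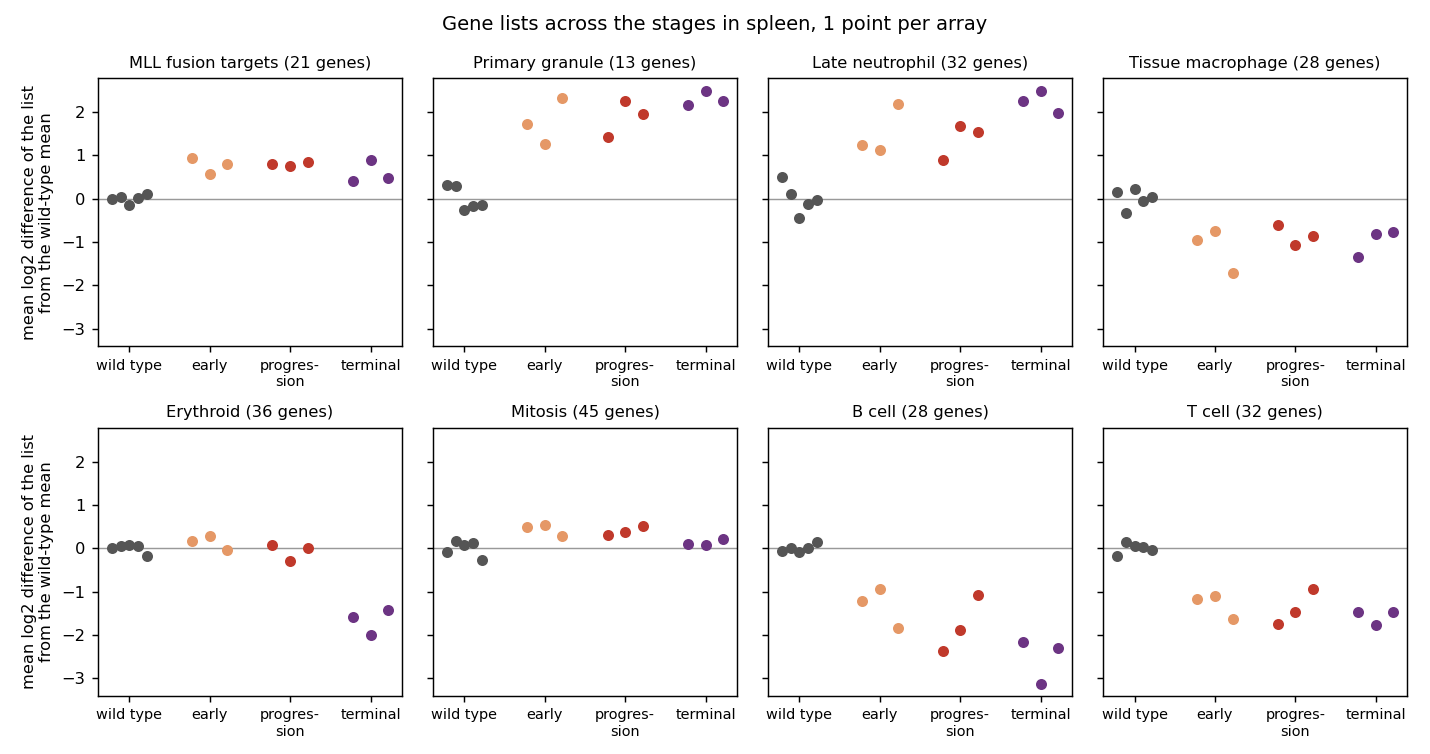
Mean log2 difference of 8 gene lists from their wild-type mean, 1 point per array, for wild-type, early, progression and terminal spleens. Primary granule and late neutrophil lists are raised in the early, progression and terminal arrays, and the erythroid list is lowest in the terminal arrays. The B cell list in progression lies at -2.37, -1.89 and -1.07.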

How the data were processed

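Of 29 arrays with 22690 probe sets each, the 14 of spleen were used. The values are on a log2 scale as the authors deposited them, and the submitters' processing notes name RMA, affy and limma. Tool versions, background settings and any filter are not given in the sources used here. Arrays give no read depth, and the number of arrays limits the precision.

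From these values, 20393 probe sets had 1 gene symbol, 691 several and 1606 none listed. A gene was its brightest probe set over the spleen arrays, which gave 12394 genes with no filter on dim genes. Probe sets without 1 symbol were tested apart, and 177 of 2246 were higher and 144 lower. Of the 1591 other probe sets of the genes that passed, 1399 had the same direction, and 1 passed in the opposite direction. Trp53 and Ccnb1 were not analysed here. With limma 3.58.1 in R 4.3.3, 1 model with 4 spleen groups was fitted, with moderated tests, and p was adjusted by Benjamini-Hochberg over the 12394 genes, with a threshold of 0.05. Every p in the text is from this limma fit. The fit was tested on simulated data. Motifs were searched in RefSeq sequence of build GRCm38.p6. Figures were drawn with matplotlib 3.10.9.

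The genes named were the 15 largest rises and 15 largest falls whose groups did not overlap, up to 8 members of each of 32 lists (783 genes) with the smallest p among those that passed, or up to 4 where none did, a set of fixed genes, and the 5 largest rises and 5 largest falls against the terminal stage. By this rule 229 genes could be named, and 21 more were chosen after their values were seen (Hoxa2, Hoxa3, Hoxa4, Hoxa11, Hoxa13, Cdk6, Mef2c, Mmp8, Mmp9, Cxcr2, Hcar2, Spic, Slc40a1, Hmox1, Cd79a, Fanca, Alas2, Slc4a1, Hbb-y, Hbb-bh1 and Mcm5). The members and lists were chosen with earlier results of these data known.

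As alternatives, arrays were normalized to quantiles again or centred on a common median, dim genes were left out, and a gene was taken as the average of its probe sets. The model was also fitted to the 8 arrays compared, to the Xist-low arrays, with a trended robust prior, with weighted arrays, with a replicate block, with Xist or the Gapdh difference as covariate, and without each array in turn. Leaving out progression 1 and 2 together, and array weights against the early stage, were added after the data were seen.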

Additional observations from a re-analysis of the deposited data

Results flagged for a closer look

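Progression 1 and 2 had 18S control signals of 8.852 and 9.062 in the middle part of the molecule, far below every other spleen array. These probe sets belong to no gene comparison.

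Among the 5 wild-type arrays, a gap test (Dixon, 95% critical value 0.71) found 1 array apart in 26 of 250 named genes and in 1 of 32 list means. Chance alone gives such a gap in about 1 in 20 groups. The genes share arrays and lists and are not independent. Wild-type 1, the mouse treated longest, stood apart in Cebpd (9.23), Lef1 (5.588), Ms4a4b (11.69), Klrd1 (9.445), Klrc1 (6.844), Tyms (4.477), Cdkn1a (7.879), Bhlhe40 (9.709), Icam1 (9.397) and Pygm (4.917). It was the lowest in the lymphocyte genes Lef1, Ms4a4b, Klrd1 and Klrc1 and the highest in Cdkn1a and Icam1. Wild-type 5 stood apart in Cxcr6 (8.836), Plac8 (12.66), Nfe2 (11.34), Aqp1 (12.17), Rag1 (4.48), Cdc45 (7.05), Bub1b (8.08), Aurka (9.084), Cdk1 (10.00) and Cd82 (12.15), where the replication and mitosis genes were at their lowest. Wild-type 3 stood apart in Hoxa5 (5.198), H2-Oa (10.63), Gp2 (9.686) and Igfbp7 (10.03), and in the mean of the fat and muscle list (0.223 above the wild-type mean). It is also the array with the highest mean of the pancreas list. Wild-type 4 stood apart in Hmga2 (4.178) and Rgs1 (8.234).

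The genes named against the terminal stage were picked among those past the limma test of that difference. Alas2 and Slc4a1 were added after their values were seen. That they pass is therefore no further result. The 2 stages also differ in Xist level and treatment time, whose part was not tested. The log2 difference of progression minus terminal was 4.23 for Igfbp7, 3.57 for Ackr3, 3.40 for Cavin2, 3.35 for Ppbp, 3.24 for Fn3k, 2.93 for Alas2 and 1.31 for Slc4a1. It was -2.84 for Rnase2a, -2.56 for Max, -2.29 for Grb14, -2.26 for Asprv1 and -2.20 for Junb. In Max, progression 3 lay just above the wild-type arrays, and progression 1 and 2 lay far below them.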

How the results depend on the processing

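The number of genes that passed in progression against wild type was 2386 (1152 higher, 1234 lower). It was 3765 (1893, 1872) with array weights, 1269 (613, 656) with the Xist-low arrays only, and 551 (404, 147) with progression 3 as the only progression array, where fewer arrays were fitted. Leaving out each array in turn gave 1300 to 3712 genes, 643 to 1900 higher and 657 to 1812 lower. The lowest counts came without progression 2, the highest without progression 3, and without progression 1 790 were lower. Centring raised the share of higher calls from 48.3% to 58.9%. Against the early stage 0 genes passed, 328 with array weights (159 higher, 169 lower), and 0 to 382 with each array left out (0 to 152 higher, 0 to 230 lower). Against the terminal stage it was 726 (409 higher, 317 lower), 200 (188, 12) with the Xist level as covariate, 225 (206, 19) with progression 3 alone, and 310 to 1911 with each array left out (241 to 872 higher, 69 to 1039 lower). The replicate numbers link no mice in the labels, and same-numbered progression and wild-type arrays had correlations of their deviations of 0.12, -0.11 and 0.01. With the replicate number as a block 1111 genes passed against wild type (536, 575) and 302 against the terminal stage (248, 54). The causes were not tested. Of 217 named genes that passed against wild type, 89 passed with progression 3 alone, 205 without progression 3, 165 with the block, 173 with the Xist-low arrays, 201 with the Xist covariate and 210 with array weights. Of these genes only Max turned sign in any of these fits, to 0.3285 with progression 3 alone. Of those that did not pass, Il6 turned to 0.2985, Ptgs2 to 0.2938 and Hbb-bh1 to -0.009743 with the Xist-low arrays only, and Hbb-y turned to -0.7835, Ppbp to -0.08753, Slc4a1 to 0.1169 and Hoxa11 to -0.2138 with progression 3 alone. Hoxa11 also turned with the Gapdh covariate (-0.01829) and quantile normalization (-0.08226), and Slc4a1 with centring (0.007426). With each array left out in turn Hoxa11 ranged over -0.05404 to 0.1148, Hoxa13 over -0.2823 to 0.01248 and Slc4a1 over -0.1443 to 0.05579. Limits are the 3 and 5 arrays a group, the 2 arrays of low 18S signal among the 3 of progression, wild-type mice of unequal treatment time and sex, dim probe sets whose differences understate a fold, and whole tissue, in which cell numbers and RNA per cell cannot be told apart.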
